A study of Mus musculus with 8 samples.

Results

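The genes described here are 38 mouse genes that act in G2 and mitosis: cyclin-dependent kinase 1 and its partners, the anaphase-promoting complex, mitotic kinases, the chromosomal passenger complex, the spindle checkpoint, kinesins, cytokinesis factors and proteins of chromosome structure. They are a list of names, and no measured value entered the choice of genes, but the list was drawn up with earlier results of these data known. A gene was taken as measured where the array annotation tied a probe set to it alone, and its brightest probe set, by the mean over all 8 arrays, represents it. Of the 38, 34 had such a probe set, out of 8252 genes named on the array. Ccnb1, Cdc25b, Bub1b and Hmmr are not analysed here. Aurkb, Bub1 and Ttk had a probe set but did not pass the filter on dim values, which left 31 genes tested.

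B cells were sorted into 4 populations, and the RNA of each was measured on 2 Affymetrix arrays, 8 in all. An array held a separate pool of 4 to 10 mice, and the labels call the pools biological replicates. All mice were QM x B6 F1 animals. QM (quasi-monoclonal) mice carry a rearranged immunoglobulin heavy chain gene, so that many of their B cells bind the hapten NP, and these pools therefore do not stand for a normal B cell repertoire. Resting B cells were GL7-negative and B220-positive cells from unimmunised mice, in pools of 6 and 9. Germinal centre B cells were GL7-positive and B220-positive. In the T-independent group (TI day 4), pools of 4 and 10 mice were taken 4 days after 30 µg of NP-Ficoll, a hapten on a polysaccharide, injected intraperitoneally. In the carrier-primed T-dependent group (TD day 4), mice received 50 µg of alum-precipitated chicken gamma-globulin with heat-killed B. pertussis and, 5 weeks later, 50 µg of soluble NP-CGG, the hapten on that carrier. Their cells were taken 4 days after the challenge, in pools of 6 and 9. In the unprimed T-dependent group (TD day 10), mice received 50 µg of alum-precipitated NP-CGG with heat-killed B. pertussis, and cells were taken on day 10, in 2 pools of 6. The T-dependent groups thus differ in priming, in the form of the antigen and in day.

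A dividing cell makes most G2 and mitosis transcripts anew in each cycle, from late S phase on, and destroys many of the proteins before it enters G1. In quiescent cells the DREAM complex, which contains the MuvB core, holds many of these genes silent. In cycling cells MuvB joins B-MYB and FOXM1 and the same genes are switched on. MuvB contacts a short promoter element, the cell cycle genes homology region (CHR), and the factor NF-Y binds CCAAT boxes near it. Resting B cells lie outside the cycle, whereas germinal centre B cells, above all those of the dark zone, divide rapidly.

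Promoters of 4 genes that were higher in every germinal centre group are shown first, because the described control of these genes is written in them. They are the 4 with the largest mean intensity over the germinal centre arrays among such genes. The sequences are from RefSeq on build GRCm38.p6. Each runs from 250 bases before the annotated transcription start to 50 after it, 5′ to 3′ on the gene's strand. Capitals mark the CHR element, TTTGAA or TTCGAA, and the CCAAT box, each searched on both strands. A match on the opposite strand reads TTCAAA or ATTGG. Ccnb2 (cyclin B2) lies at chr9:70421505-70421804 on the minus strand. Bub3, a spindle checkpoint protein, lies at chr7:131560120-131560419 on the plus strand, and the first of its 2 table entries is printed. Cdc20, an activator of the anaphase-promoting complex, lies at chr4:118437294-118437593 on the minus strand. Kif22, a chromosome-bound kinesin, lies at chr7:127042371-127042670 on the minus strand.
Ccnb2: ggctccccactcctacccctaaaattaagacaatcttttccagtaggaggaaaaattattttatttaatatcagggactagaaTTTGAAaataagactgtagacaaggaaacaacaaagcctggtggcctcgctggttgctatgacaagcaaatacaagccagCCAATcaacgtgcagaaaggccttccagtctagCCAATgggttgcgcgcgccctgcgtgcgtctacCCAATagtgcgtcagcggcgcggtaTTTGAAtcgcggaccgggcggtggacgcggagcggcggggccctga
Bub3: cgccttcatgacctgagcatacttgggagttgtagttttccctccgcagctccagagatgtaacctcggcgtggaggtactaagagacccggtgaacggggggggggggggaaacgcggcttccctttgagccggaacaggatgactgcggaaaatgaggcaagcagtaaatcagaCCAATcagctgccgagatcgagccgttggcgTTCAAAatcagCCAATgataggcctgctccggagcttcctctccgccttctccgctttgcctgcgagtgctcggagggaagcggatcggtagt
Cdc20: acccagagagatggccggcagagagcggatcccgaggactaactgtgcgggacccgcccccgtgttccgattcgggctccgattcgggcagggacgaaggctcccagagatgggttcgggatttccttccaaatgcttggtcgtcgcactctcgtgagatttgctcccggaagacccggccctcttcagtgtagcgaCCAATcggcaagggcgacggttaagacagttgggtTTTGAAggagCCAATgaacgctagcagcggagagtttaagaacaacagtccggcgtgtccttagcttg
Kif22: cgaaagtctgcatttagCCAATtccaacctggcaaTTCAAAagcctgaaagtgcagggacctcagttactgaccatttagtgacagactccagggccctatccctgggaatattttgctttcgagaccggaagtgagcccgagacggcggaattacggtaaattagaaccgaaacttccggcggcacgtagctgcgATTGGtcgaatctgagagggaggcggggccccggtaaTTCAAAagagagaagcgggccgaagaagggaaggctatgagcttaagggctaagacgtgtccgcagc
The Ccnb2 promoter held 2 CHR and 3 CCAAT matches, with a CHR match just past the start and the CCAAT matches at -87, -54 and -21. In Bub3 a CHR match at -43 lay between CCAAT matches at -74 and -32. In Cdc20 a CHR match at -18 lay between CCAAT matches at -53 and -8. Kif22 had a CHR match at -17 and a CCAAT match at -54, with a second pair farther upstream.

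Of the 38 genes, 32 had a promoter in the RefSeq table. Ccna2, Cdc25c, Aurkb, Incenp, Kif20a and Smc4 had none in it. A CHR match occurred in 26 of the 32 (81.2%) and a CCAAT match in 28 (87.5%), and 25 (78.1%) held both. Over all 27025 genes of the table, windows of the same length held a CHR match in 21.7%, a CCAAT match in 41.1% and both in 9.65%. Over its 17492 protein-coding genes these shares were 20.2%, 42.3% and 9.24%. Counting 1 entry per gene, the 37 CHR matches had a median position of -17, and 27 of them began no more than 100 bases before the start. The 69 CCAAT matches had a median position of -65, and 49 began within the same distance or after the start. In 1 case a CHR match and a CCAAT match shared bases. The letters of neither motif were found in the windows of Birc5, Mad2l1 and Tacc3. Among the genes with a promoter entry, a CHR match was present in 14 of 18 that were higher in germinal centre B cells by the test below and in 7 of 8 that were tested and not called. A match is a run of letters, and binding was not measured.

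**Figure D1:**
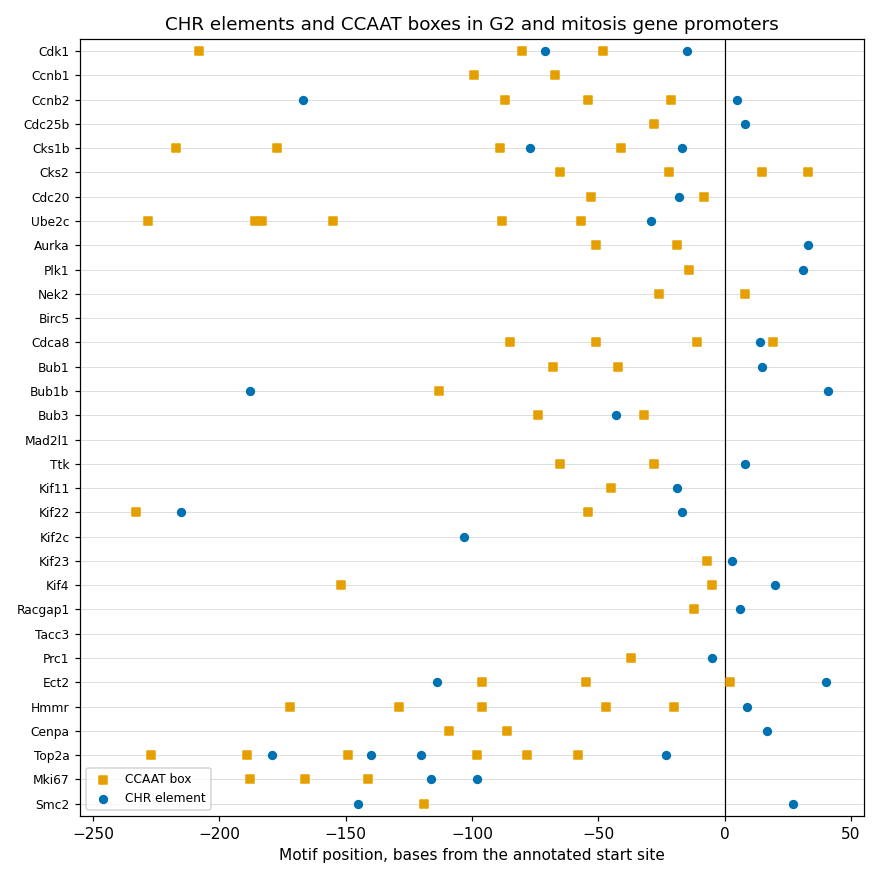
Positions of CHR and CCAAT matches in the promoters of the members, in bases from the transcription start (horizontal axis), for the 32 genes with a promoter entry, 1 line per gene; a point is 1 match. The median position was -17 for CHR matches and -65 for CCAAT matches. Positions in the promoters of other genes were not examined.

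The values are deposited intensities, on a linear scale that can fall below 0, and array medians lay between 77 and 89. Values under a floor of 81, the 50th percentile of all values, were set to it before log2 was taken. A fold whose dimmer side includes such a value is a lower bound, written "at least". Where both arrays of a group were set to the floor, their spread is lost. The SE, p and interval then leave that spread out, as for the 13 tested genes below the floor on both resting arrays. For 5 more tested genes, Aurka, Cdca8, Kif23, Prc1 and Ube2c, 1 resting array was set to the floor. Their SE, p and interval hold only part of the resting spread. Over the 8 arrays, the Gapdh 3' to 5' control ratio, a measure of RNA integrity, was 0.867 and 1.59 in resting, between 0.836 and 0.981 on the 4 TD arrays, and 1.24 and 1.68 in TI. Of the 10 B cell markers, 9 were on the array, and their summed intensity was 34345 to 36961 in resting and 21838 to 26400 in germinal centre B cells, with 6 lower in the germinal centre mean. Markers of other cells differed between the sorts as well. The summed red cell markers (9 of 14 on the array) read 25974 to 29426 in resting against 4057 to 5692 in germinal centre B cells, with Epor and Car1 at or below the floor. Most of that gap was Hba-a1 and Hbb-b2, without which the sums were 4238 to 5132 and 3292 to 5143. Slc4a1 went the other way in TI, at 724 and 707 in resting, 221 to 419 in the TD groups and 1700 and 2317 in TI. Neutrophil markers (9 of 10) read 6634 to 6779 against 1826 to 2971. Macrophage markers (10 of 10) read 3065 to 3264 in resting, 1373 to 2223 in the TD groups and 4959 to 5923 in TI, with Adgre1 and Marco below the floor. The higher TI sum came from Apoe, and without it the sums were 2489 to 2631 in resting, 829 to 1092 in the TD groups and 1588 to 1710 in TI. Plasma cell markers (6 of 6) read 2135 to 2255 in resting, 2844 to 4167 in the TD groups and 10289 to 13728 in TI, where Jchain made most of the sum. Without Jchain they read 1371 to 1452, 984 to 1463 and 2942 to 4372. Germinal centre B cell markers (6 of 8) read 2901 to 3232 in resting, 5019 to 5858 in the TD groups and 3642 to 3684 in TI. Of these, Bcl6, Mef2b, S1pr2 and Fas were above resting on every germinal centre array. Gcsam read 154 and 101 in resting, 501 to 768 in the TD groups and 156 and 131 in TI. Lmo2 went the other way, at 845 and 933 in resting, 668 to 780 in the TD groups and 459 and 383 in TI. T cell markers (8 of 10) stayed between 493 and 906, with Cd3e and Cd8a at or below 0 on every array. NK cell markers (4 of 6) read 484 to 655 in resting and 273 to 406 in germinal centre B cells. The part of these cells, and of RNA integrity, in the differences described here was not tested apart from a fit with the Gapdh ratio as a covariate. In bulk RNA, more cells in G2 and mitosis and more of these transcripts per cell cannot be told apart.

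Germinal centre B cells of all 3 responses carried more G2 and mitosis RNA than resting B cells. Of the 34 genes on the array, 15 and 16 were above the floor on the resting arrays and 28 to 31 on each germinal centre array. The median intensity of the 31 tested genes was 71 and 86 in resting and 437 to 490 on the germinal centre arrays. All tested probe sets had medians of 250 and 229 in resting and 240 to 257 on the germinal centre arrays. In the mean of the germinal centre groups, 21 of 31 rose and 0 fell against resting at an adjusted p under 0.05 (limma), where 7.73% of all 7253 tested probe sets rose and 5.50% fell. The median log2 difference of the 31 was 1.43, with values at the floor counted as the floor, and that of all probe sets was 0.00. A gene silent in resting cells could pass the filter only by being bright in germinal centre B cells, so these counts are a description. The 13 genes above the floor on both resting arrays had no such need, and 10 of these rose, with a median log2 difference of 1.66. The choice of the brightest probe set, which concerns 7 genes with several, also used measured values. It was made over all 8 arrays, 6 of them germinal centre arrays, and can favour a probe set bright there. Leaving out 1 array at a time gave 18 to 22 risen genes.

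Each response was also set against the same 2 resting arrays. In TD day 4, 19 of 31 rose and 0 fell, where 5.83% of all probe sets rose and 3.58% fell. In TD day 10, 20 rose and 0 fell, against 6.45% and 4.44%. In TI day 4, 18 rose and 0 fell, against 5.42% and 3.98%. The median log2 differences were 1.52, 1.41 and 1.47. These comparisons share their resting arrays and are therefore not independent. The counts depend on how the spread is estimated: fitted with only the 4 arrays compared, 8, 12 and 9 genes passed. The share of all probe sets called is not given for this fit or the other alternatives. A loss of calls particular to these genes therefore cannot be told from a loss over all probe sets. Without TD day 4 replicate 1 or replicate 2, 10 and 12 genes rose in that group, and without TD day 10 replicate 1 or replicate 2, 12 and 13. The calls most often lost over 23 alternatives were those of Cdc25c in TD day 4 (lost in 17) and TD day 10 (16), Racgap1 in TD day 10 (14), Mki67 in TI day 4 (14), and Bub3 in TD day 4 (13) and TD day 10 (12), and Cenpa in TD day 4 (12).

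**Figure D2:**
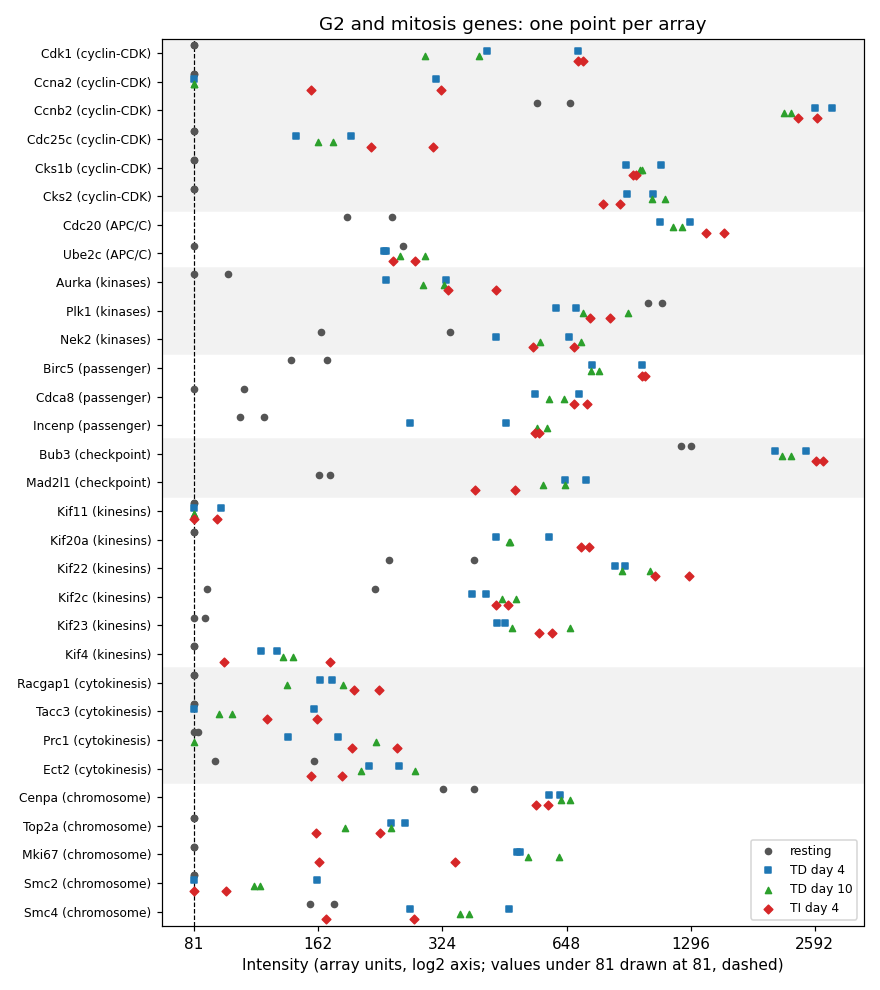
Deposited intensity of each member on each of the 8 arrays, for the 31 tested genes, on a log2 axis with values under 81 drawn at 81; a point is 1 array and colours mark the 4 groups. Germinal centre arrays lie above resting arrays for most genes, while Plk1, by its representative probe set, lies below.

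Cyclin-dependent kinase 1 and its partners drive entry into mitosis, and 5 of the 6 tested rose in every response. Cks1b and Cks2, small docking subunits of cyclin-dependent kinases, were not above the floor in resting cells, so their differences are lower bounds. Their SE and p leave out the spread of the resting pair. Cks1b read 8 and 48 in resting, 1100 and 903 in TD day 4, 976 and 986 in TD day 10, and 939 and 953 in TI day 4. Cks2 read 71 and 68 in resting, 1053 and 906 in TD day 4, 1045 and 1121 in TD day 10, and 872 and 794 in TI day 4. Every germinal centre array was far above the floor for both genes. The germinal centre mean was at least 12.0-fold higher for Cks1b (log2 difference 3.59 ± 0.13 SE, adjusted p = 0.00013) and at least 11.8-fold higher for Cks2 (3.56 ± 0.13, adjusted p = 0.00013).

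Cdk1 itself read -169 and -63 in resting, 690 and 416 in TD day 4, 397 and 294 in TD day 10, and 692 and 711 in TI day 4. It rose at least 6.61-fold, 4.22-fold and 8.66-fold in the 3 responses (adjusted p = 0.0037, 0.0078 and 0.0026). Cyclin B2 (Ccnb2), its activating subunit, was measurable in resting cells at 660 and 550. It read 2595 and 2846 in TD day 4, 2176 and 2275 in TD day 10, and 2358 and 2618 in TI day 4. No germinal centre array overlapped the resting arrays, and the germinal centre mean was 4.10-fold higher (log2 2.03 ± 0.14 SE, adjusted p = 0.00071).

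Cdc25c, a phosphatase that activates Cdk1, has 2 probe sets. The one that represents it read 65 and 53 in resting and 143 to 307 on germinal centre arrays, at least 2.39-fold higher in their mean (adjusted p = 0.010). The other read 52 and 140 in resting and 105 to 214 in germinal centre B cells, which overlap, and was not called (adjusted p = 0.22). Cyclin A2 (Ccna2), which acts in S phase and G2, read -666 and -68 in resting, 73 and 312 in TD day 4, -114 and -247 in TD day 10, and 156 and 321 in TI day 4. With arrays at the floor on both sides its fold is not given, and it was not called (adjusted p = 0.41).

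The anaphase-promoting complex marks cyclin B and securin for destruction and so ends mitosis. Its activator Cdc20 read 245 and 190 in resting, 1293 and 1091 in TD day 4, 1235 and 1172 in TD day 10, and 1411 and 1558 in TI day 4. The groups of germinal centre arrays lay 5.50-fold, 5.58-fold and 6.87-fold above resting (adjusted p = 0.0017, 0.0017 and 0.0012). Ube2c, the ubiquitin-conjugating enzyme of the complex, read 260 and 56 in resting and 234 to 294 on germinal centre arrays. The first resting array lay inside the germinal centre range and the second far under it, and no difference was called (at least 1.77-fold, adjusted p = 0.29).

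Among the mitotic kinases, Aurka, which acts at centrosomes, read 53 and 98 in resting, 330 and 236 in TD day 4, 291 and 327 in TD day 10, and 334 and 437 in TI day 4. It rose at least 3.60-fold in the germinal centre mean (adjusted p = 0.0029). Nek2, a kinase of centrosome separation, read 338 and 165 in resting and 437 to 701 in germinal centre B cells without overlap. It rose 2.48-fold in the mean of the 3 groups (adjusted p = 0.045) a call lost under 12 of 22 alternatives, and passed in no single response (adjusted p = 0.13 in TD day 4, 0.076 in TD day 10, 0.093 in TI day 4).

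Plk1, the polo-like kinase of mitotic entry and cytokinesis, has 3 probe sets, and they disagree in direction. The brightest, which by the rule represents the gene, read 1024 and 1107 in resting and 612 to 911 in germinal centre B cells, lower on every array. Its log2 difference was -0.52 ± 0.15 SE and was not called (adjusted p = 0.079). In TD day 4 alone this probe set was at -0.72 (adjusted p = 0.069), and it was called lower there with the floor at the 60th percentile (adjusted p = 0.044) and with a trended and robust prior (adjusted p = 0.047). The second read 57 and -19 in resting and 336 to 552 in germinal centre B cells, at least 4.92-fold higher (adjusted p = 0.0015). The third read -339 and -362 in resting and 273 to 587 in germinal centre B cells, at least 5.09-fold higher (adjusted p = 0.0033). By Affymetrix's naming, the suffix of the first and second, f, marks probes that may match related sequences. A direction for Plk1 RNA therefore depends on the probe set.

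**Figure D3:**
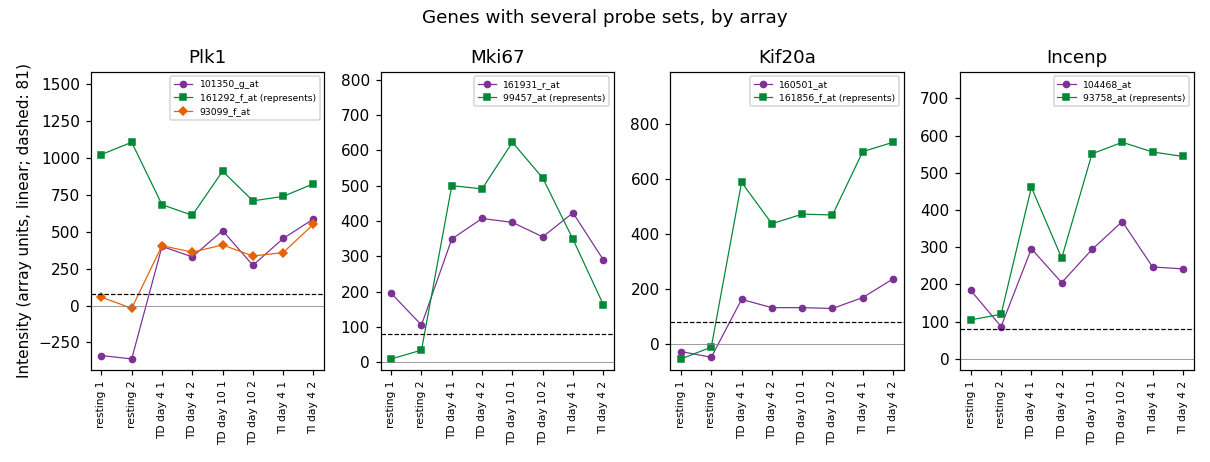
Deposited intensity (linear axis) of each probe set of Plk1, Mki67, Kif20a and Incenp on each of the 8 arrays; a point is 1 array, a line joins the points of 1 probe set, and the dashed line marks 81. The Plk1 probe sets part in direction between resting and germinal centre arrays, and those of Mki67 part in TI day 4.

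The chromosomal passenger complex corrects attachments of chromosomes to the spindle and later drives cytokinesis. All 3 tested subunits rose in all 3 responses. Birc5 (survivin) read 139 and 170 in resting, 985 and 749 in TD day 4, 744 and 776 in TD day 10, and 987 and 1005 in TI day 4, and the germinal centre mean was 5.64-fold higher (log2 2.49 ± 0.16 SE, adjusted p = 0.00062). Cdca8 (borealin) read 11 and 107 in resting and 544 to 728 in germinal centre B cells, at least 6.89-fold higher (adjusted p = 0.00048). Incenp, the scaffold, read 105 and 120 in resting, 461 and 271 in TD day 4, 551 and 582 in TD day 10, and 556 and 544 in TI day 4, and was 4.27-fold higher (adjusted p = 0.0026). The other probe set of Incenp read 184 and 87 in resting and 205 to 369 in germinal centre B cells, 2.14-fold higher without a call (adjusted p = 0.073). Aurkb, the kinase of the complex, read -773 and -677 in resting and between -768 and 147 on germinal centre arrays. It was above the floor on 1 array, a TI array, and was not tested.

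The spindle checkpoint holds anaphase until every chromosome is attached. Mad2l1, which inhibits Cdc20, read 173 and 163 in resting, 641 and 724 in TD day 4, 644 and 569 in TD day 10, and 485 and 389 in TI day 4. It rose 4.06-fold, 3.60-fold and 2.59-fold (adjusted p = 0.0026, 0.0034 and 0.0082), and the TI arrays were the lowest of the germinal centre arrays. Bub3, whose promoter is printed above, read 1298 and 1231 in resting, 2471 and 2076 in TD day 4, 2159 and 2275 in TD day 10, and 2605 and 2718 in TI day 4. Its rise was smaller, at 1.88-fold in the germinal centre mean (log2 0.91 ± 0.13 SE, adjusted p = 0.0078), with the TI arrays highest. The other probe set of Bub3 read -12 and 10 in resting and -74 to -13 in germinal centre B cells. It was below the floor on every array and was not tested. Bub1 and Ttk, the kinases of the checkpoint, were dim: Ttk read -42 to 90 and the brightest Bub1 probe set -18 to 53.

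Kinesins move chromosomes and build the spindle. Kif20a, which works in cytokinesis, read -55 and -12 in resting, 589 and 438 in TD day 4, 473 and 470 in TD day 10, and 701 and 735 in TI day 4. By this probe set, which has the suffix f, it rose at least 6.27-fold, 5.82-fold and 8.86-fold (adjusted p = 0.0013, 0.0016 and 0.00093). Its other probe set rose at least 1.93-fold in the germinal centre mean (adjusted p = 0.018). That set was called in TI day 4 (adjusted p = 0.016) and not in TD day 4 (adjusted p = 0.062) or TD day 10 (adjusted p = 0.11). Kif23, the kinesin of the central spindle, read 58 and 86 in resting and 440 to 661 in germinal centre B cells, at least 6.30-fold higher (adjusted p = 0.00048). Kif22 read 387 and 240 in resting, 896 and 849 in TD day 4, 1031 and 881 in TD day 10, and 1064 and 1284 in TI day 4, 3.25-fold higher in the germinal centre mean (adjusted p = 0.0050). Kif2c, which takes microtubules apart at centromeres, read 222 and 87 in resting and 383 to 490 in germinal centre B cells. It passed in the mean of the groups at 3.16-fold (adjusted p = 0.026). By group it lay 2.87-fold above resting in TD day 4 (adjusted p = 0.078), 3.38-fold in TD day 10 (adjusted p = 0.046) and 3.25-fold in TI day 4 (adjusted p = 0.056). No difference in Kif2c between these groups was called. Kif4, a motor bound to chromosome arms, read 55 and 7 in resting and 96 to 173 in germinal centre B cells and was not called (adjusted p = 0.12). Kif11, the motor that separates spindle poles, read between -67 and 94 on all arrays, near the floor throughout (adjusted p = 0.80).

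Of the cytokinesis factors, Racgap1, a partner of Kif23, read -41 and -192 in resting and 136 to 228 in germinal centre B cells, at least 2.21-fold higher (adjusted p = 0.0076). The other tested genes of this role did not pass. Prc1, which bundles the central spindle, read 83 and 30 in resting and 40 to 251 in germinal centre B cells (adjusted p = 0.15). Ect2, which activates RhoA at the cleavage site, read 158 and 91 in resting and 156 to 278 in germinal centre B cells (log2 0.82 ± 0.25 SE, adjusted p = 0.092). Tacc3, a spindle protein, read -40 and -20 in resting and 79 to 161 in germinal centre B cells (adjusted p = 0.31).

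Among the proteins of chromosome structure, Top2a (topoisomerase II alpha) and Mki67, the Ki-67 protein that coats mitotic chromosomes, rose in all 3 responses by their representative probe sets. Top2a read -78 and -47 in resting, 263 and 243 in TD day 4, 243 and 188 in TD day 10, and 229 and 160 in TI day 4, at least 2.69-fold higher in the germinal centre mean (adjusted p = 0.0057). Mki67 read 9 and 34 in resting, 500 and 491 in TD day 4, 623 and 522 in TD day 10, and 348 and 163 in TI day 4. It rose at least 6.12-fold, 7.04-fold and 2.94-fold (adjusted p = 0.0089, 0.0062 and 0.044). Its second probe set was 2.57-fold higher in the germinal centre mean (adjusted p = 0.026) and passed in no single response (adjusted p = 0.055, 0.052 and 0.071). Cenpa, the histone of the centromere, read 386 and 325 in resting and 546 to 662 in germinal centre B cells. It was 1.71-fold and 1.82-fold higher in the TD groups (adjusted p = 0.036 and 0.023) and 1.60-fold in TI without a call (adjusted p = 0.054). The condensin subunits Smc2 and Smc4, which compact chromosomes, were not called in any comparison. Smc4 read 177 and 155 in resting, 270 and 470 in TD day 4, 376 and 357 in TD day 10, and 277 and 169 in TI day 4, so that 1 TI array lay within the resting range (germinal centre mean log2 0.88 ± 0.28 SE, adjusted p = 0.099).

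**Figure D4:**
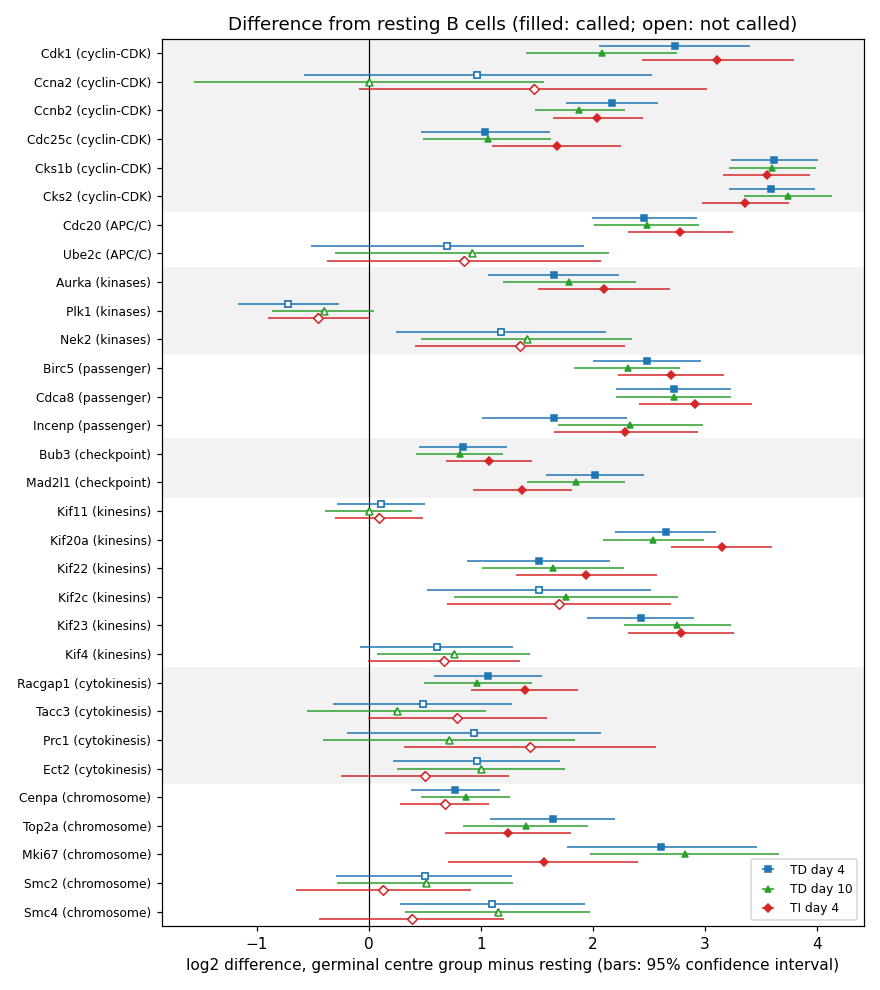
Log2 difference of each tested member from resting B cells for each of the 3 responses, grouped by role, with bars for the 95% confidence interval and filled symbols for calls. The values of Cks1b and Cks2, which are lower bounds, lie between 3.36 and 3.74, and Plk1, by its representative probe set, lies below 0. For genes below the floor on both resting arrays, the bars leave out the spread of that pair.

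The responses were then compared with each other. None of the 31 genes was called between any pair of germinal centre groups by limma. In TI against TD day 4, 0 of 31 passed, where 0.731% of all probe sets were higher and 0.717% lower. The unadjusted p was under 0.05 for 4 of the 31 genes and for 1044 of all 7253 probe sets. The smallest adjusted p of the 31 was 0.17. In TD day 10 against TD day 4, 0 passed, where 0% of all probe sets were higher and 0% lower. There 1 gene and 373 of all 7253 probe sets had an unadjusted p under 0.05. In TI against TD day 10, 0 passed, where 1.20% were higher and 1.20% lower, and the smallest adjusted p was 0.13. There 5 genes and 1248 of all 7253 probe sets had an unadjusted p under 0.05. An F test across the 3 groups called 0 of 31, against 1.88% of all probe sets, with a smallest adjusted p of 0.24. The same counts of 0 came from every alternative, the fit with the Gapdh ratio as a covariate included.

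The intervals show what these arrays could resolve. Of the 31 genes, 27 were above the floor on all arrays compared in TI against TD day 4, 26 in TD day 10 against TD day 4 and 27 in TI against TD day 10. For these, the 95% confidence interval had a median half-width of 0.53 to 0.56 on the log2 scale, and of 0.39 to 1.22 by gene. It excluded a 2-fold change in either direction for 14 of 27, 20 of 26 and 18 of 27 genes. For the other genes a 2-fold difference was not excluded, or values at the floor left it unresolved. The estimated difference reached 2-fold for 1 gene in TI against TD day 4 (Mki67; 7.20% of all probe sets did), for 0 in TD day 10 against TD day 4 (3.39%) and for 3 in TI against TD day 10 (Cdk1, Ccna2 and Mki67; 9.28%).

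Mki67 had the largest estimated difference of TI from TD day 4, at -1.06 on the log2 scale (95% interval -1.90 to -0.21, adjusted p = 0.24). From TD day 10 it differed by -1.26 (-2.10 to -0.42, adjusted p = 0.14). Its second probe set read 195 and 105 in resting, 349 and 407 in TD day 4, 396 and 355 in TD day 10, and 423 and 290 in TI day 4. There the TI arrays overlapped the TD arrays, and the log2 differences were -0.11 and -0.10. Cdk1 differed the other way, at 1.04 above TD day 10 (0.36 to 1.71, adjusted p = 0.13), since TD day 10 was its lowest germinal centre group. Mad2l1 was lower in TI by an estimated -0.65 against TD day 4 (-1.09 to -0.21, adjusted p = 0.17). Kif20a was higher by an estimated 0.50 (0.05 to 0.95, adjusted p = 0.29), and its second probe set by 0.45. Cdc25c was higher by an estimated 0.63 (0.06 to 1.21, adjusted p = 0.30), and its second probe set by 0.32.

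Set against all 4 TD arrays, both TI arrays were higher without overlap for 9 of the 31 genes (29.0%, where 13.7% of all probe sets were): Cdk1, Cdc20, Cdc25c, Aurka, Birc5, Bub3, Kif20a, Kif22 and Racgap1. They were lower for 5 (16.1%, against 18.6% of all probe sets): Mki67, Cks2, Mad2l1, Cenpa and Ect2. In TI against TD day 4, 20 of 31 differences were positive, with a median of 0.19 on the log2 scale. Of all 7253 probe sets, 3351 were positive there, with a median of -0.01. Against TD day 10, 16 of the 31 were positive, with a median of 0.03. Of all probe sets, 2986 were positive there, with a median of -0.08. All 5 genes of chromosome structure, Cenpa, Top2a, Mki67, Smc2 and Smc4, had negative differences in both, with medians of -0.40 and -0.38. None of these was called. The TI arrays had the higher Gapdh 3' to 5' ratios among germinal centre arrays, and the array with the ratio of 1.68 was the lower of the 2 TI arrays for Top2a, Mki67, Smc2, Smc4 and Cenpa. Genes of other roles went both ways: that array was the lower for Mad2l1 and Cks2 and the higher for Aurka, Cdc20 and Kif22. Whether these differences follow the ratio was not tested beyond the fit with it as a covariate.

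**Figure D5:**
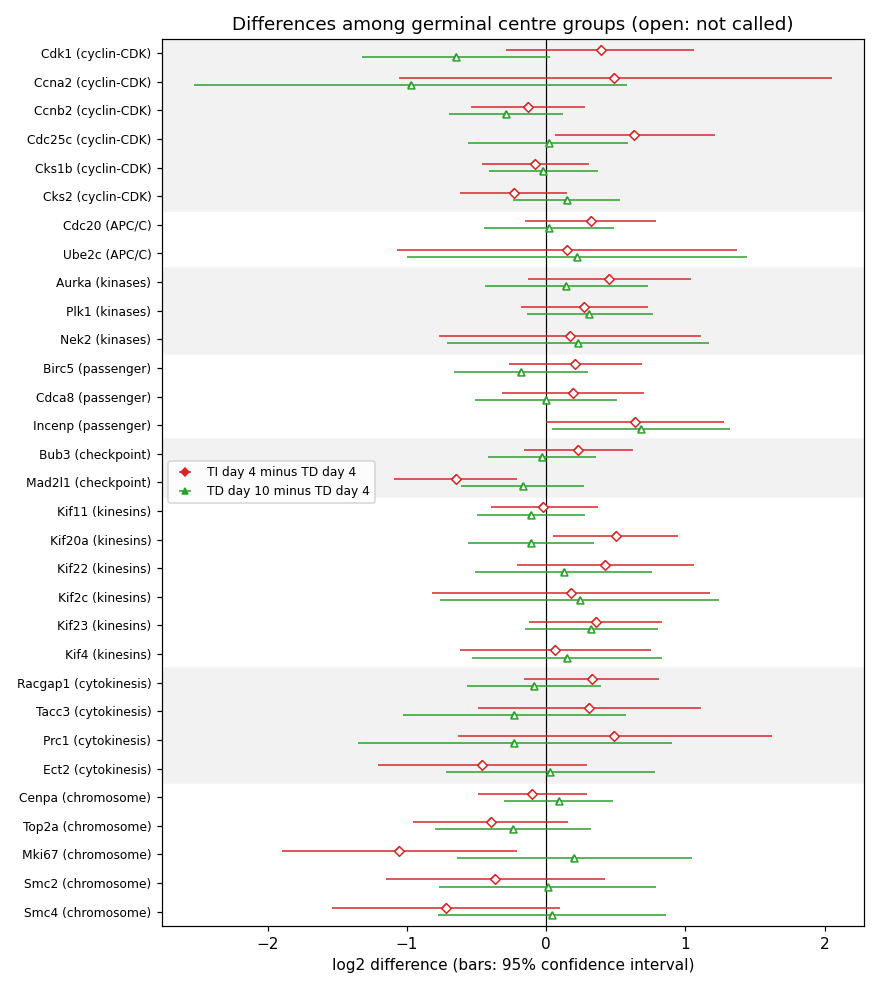
Log2 difference of TI day 4 (diamonds) and TD day 10 (triangles) from TD day 4 for each tested member, with bars for the 95% confidence interval; open symbols mark differences not called, which all are. Most intervals include 0. Those of Mki67 and Mad2l1 in TI lie below it, and those of Cdc25c and Kif20a in TI and of Incenp in TD day 10 lie above it.

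Other G2 and mitosis genes, from a list of 116 symbols, were followed for comparison. Of these, 59 were on the array and 43 were tested. In the germinal centre mean 11 rose and 0 fell, where 7.73% of all probe sets rose and 5.50% fell. The median log2 difference of the 43 was 0.55. By response, 8 rose at TD day 4, 8 at TD day 10 and 9 in TI. Of all probe sets, 5.83%, 6.45% and 5.42% rose in these responses. The count of 11 became 7 with no filter, with array weights, and at the least when 1 array was left out. The 5 with the smallest p were Kpna2, an importin, at least 5.96-fold higher (adjusted p = 0.00028), the phosphatase Cdkn3, at least 3.97-fold (adjusted p = 0.00086), the anaphase-promoting complex subunit Cdc16, at least 2.97-fold (adjusted p = 0.0053), the cohesin subunit Rad21, 1.91-fold (adjusted p = 0.0070), and the anaphase-promoting complex subunit Anapc5, 1.88-fold (adjusted p = 0.0078). Kpna2 read 74 and 86 in resting, 514 and 490 in TD day 4, 495 and 467 in TD day 10, and 533 and 487 in TI day 4. None of the 43 was called between germinal centre groups. By pair of groups, at most 1.20% of all probe sets were called in each direction.

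Of 52 DNA replication genes, which act in S phase, 45 were on the array and 37 were tested. In the germinal centre mean 22 rose and 0 fell, where 7.73% of all probe sets rose and 5.50% fell. The median log2 difference of the 37 was 1.50. In TI against TD day 4, 28 of these 37 differences were negative, with a median of -0.17 and 0 called. Of all 7253 probe sets, 3785 were negative there, with a median of -0.01, and 0.717% were called lower. In TI against TD day 10, 28 of the 37 were negative, with a median of -0.27 and 1 called lower. Of all probe sets, 4135 were negative there, with a median of -0.08, and 1.20% were called lower. The medians of the G2 and mitosis genes in these 2 comparisons were 0.19 and 0.03. The difference between the lists was not tested.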

How the data were processed

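Per the labels, RNA was extracted with RNAzol and biotin-labelled. The authors deposited 1 linear intensity per probe set and array, made with software and scaling not given in the sources used here. Of 12488 probe sets, 30.1% of values are 0 or below, and the mean after trimming 2% at each end is 200.2 on each array. No normalization was added. Values under 81 were set to it, log2 was taken, 66 control probe sets were set aside, and 7253 probe sets above 81 on at least 2 arrays were tested.

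limma 3.58.1 (R 4.3.3) fitted all 8 arrays together with 1 mean per group, with empirical Bayes variances (4 residual and 2.20 prior degrees of freedom). It gave 7 comparisons and an F test, two-sided, with Benjamini-Hochberg adjustment over all tested probe sets at 0.05. Intervals are 95%, unadjusted. The method was tested on simulated data. Motif searches and figures were made with Python 3.11.15.

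Every member is named, by role. Of the other G2 and mitosis genes, those called with the 5 smallest p in each direction are named. The lists were, like the members, chosen with earlier results of these data known. In the probe annotation 10855 probe sets name 1 gene, 396 several and 1237 none. Arrays sharing a replicate number deviated from their group means with correlations of -0.217 to 0.121, so the numbers were not treated as pairs. Alternatives were other floors, filters, normalizations, probe set rules, priors, array weights, a replicate block, fewer arrays and leaving out each array. Those chosen after seeing the data were a pseudocount, the Gapdh ratio as a covariate, the brightest probe set by mean log2, and leaving out probe sets with the suffix f or r where the gene has another. Kif22 and Ube2c have only a probe set with the suffix r and kept it. Protein sequences are not used here.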

Additional observations from a re-analysis of the deposited data

How the results depend on the processing

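No alternative turned the direction of any of the 78 calls of members against resting, and none gave a call between germinal centre groups. The counts below stand without the share of all probe sets called in the same fit. Plk1, not called here by its representative probe set, was called lower in TD day 4 with a floor at the 60th percentile and with a trended and robust prior, at -0.72 in both. Another alternative pointed the other way. Leaving out probe sets with the suffix f leaves Plk1 only its probe set without that suffix. In the main fit that probe set was called higher in the germinal centre mean (log2 difference at least 2.35) and in every response. With only the arrays compared, the members called higher numbered 8 (TD day 4), 12 (TD day 10) and 9 (TI day 4), and 28 of 57 calls were lost. Leaving out 1 array gave 18 to 22 in the germinal centre mean, 10 to 19 for TD day 4, 12 to 20 for TD day 10, 14 to 19 for TI day 4 and 0 in each comparison between germinal centre groups. A group left with 1 array is assumed to vary like the others. It gave 7 to 9 of the other G2 and mitosis genes, and no filter and array weights gave 7 each, against 11. It gave 20 to 22 of the DNA replication genes. With a replicate block, 20 members were called in the germinal centre mean, 16 each for TD day 4 and TD day 10 and 17 for TI day 4, and 9 of the 78 calls were lost. With the Gapdh ratio as a covariate, chosen after seeing the data, the counts were 20, 15, 14 and 18. Signal over background limits Ccna2, Kif11, Smc2 and the genes not tested.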
